A study of Mus musculus with 2 samples.

Results

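The miR-181 genes of the mouse are Mir181a-1, Mir181b-1, Mir181a-2, Mir181b-2, Mir181c and Mir181d. They were chosen by gene symbol, by matching the deposited gene identifiers to the GENCODE M21 annotation, and make up 6 of the 2202 microRNA genes counted. All 6 had at least 10 counts in each library and were called detected, against 14.3% of all microRNA genes (314 genes). The counts come from myocytes made from C2C12, a myoblast line derived from crushed thigh muscle of the C3H strain, after 72 h of differentiation in culture. The series holds 1 group of 2 libraries, numbered as biological replicates 1 and 2, so levels and their spread could be described and no condition was compared with another. Both replicates come from the same line, and the labels do not say whether they were differentiated separately, so their spread may be technical in part. Undifferentiated C2C12 cells were not analysed here.

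MicroRNAs are cut from a hairpin precursor, and either arm of the hairpin (5p or 3p) can be loaded into an Argonaute protein. Bases 2 to 8 of the loaded strand, the seed, choose the messenger RNAs to be repressed. The miR-181 microRNAs are known in skeletal muscle as factors that rise when myoblasts differentiate and that repress the homeobox gene Hoxa11, and in the immune system as regulators of lymphocyte development and T cell receptor signalling. Because their 5p strands share a seed, they are commonly treated as a family with shared targets.

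The mature sequences show which strands the members share and which tell them apart. All were taken from RefSeq on GRCm38.p6, in which the 6 genes matched by symbol, and are written 5′ to 3′ with the seed in capitals. The 5p strands have 4 distinct sequences:
miR-181a-5p (Mir181a-1 and Mir181a-2): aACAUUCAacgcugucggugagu
miR-181b-5p (Mir181b-1 and Mir181b-2): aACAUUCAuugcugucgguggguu
miR-181c-5p (Mir181c): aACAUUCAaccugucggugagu
miR-181d-5p (Mir181d): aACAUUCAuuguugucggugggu

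All 4 carry the seed ACAUUCA, which no other mature sequence among the 1679 names in the RefSeq table has. Counted from the 5′ end, miR-181b-5p differs from miR-181a-5p by A9U, C10U and A21G, and miR-181d-5p differs from miR-181b-5p by C12U within their paired length. The sequence of miR-181c-5p pairs with that of miR-181a-5p at 22 bases with 1 base left out and no substitution. By sequence, the family therefore has an a/c side and a b/d side, and each pair of neighbouring genes holds 1 of each.

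The 3p strands are more varied, with 6 distinct sequences and 4 seeds:
miR-181a-1-3p: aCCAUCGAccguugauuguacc
miR-181a-2-3p: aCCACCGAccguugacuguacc
miR-181b-1-3p: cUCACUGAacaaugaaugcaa
miR-181b-2-3p: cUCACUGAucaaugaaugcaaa
miR-181c-3p: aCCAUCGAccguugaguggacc
miR-181d-3p: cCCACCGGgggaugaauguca

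The 3p strands of Mir181a-1 and Mir181c share the seed CCAUCGA, and those of Mir181b-1 and Mir181b-2 share UCACUGA. Mir181a-2 and Mir181d each have a 3p seed of their own. The 3p strand of Mir181a-2 differs from that of Mir181a-1 by U5C and U16C, and that of Mir181b-2 differs from that of Mir181b-1 by A9U within their paired length. None of these seeds occurs in a microRNA outside the family in the same table.

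The members lie in 3 pairs on mm10 (GRCm38). Mir181a-1 (ENSMUSG00000065565.1; chromosome 1, 137966455 to 137966541) and Mir181b-1 (ENSMUSG00000065458.1; chromosome 1, 137966639 to 137966718) are on the plus strand with 97 bases between the hairpins. Both lie in an intron of the long noncoding RNA gene Gm4258. Mir181b-1 also lies wholly in an exon of the noncoding gene A430106G13Rik, whose first annotated bases overlap the last 11 bases of Mir181a-1. On the other strand both lie in an intron of Gm26936.

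Mir181a-2 (ENSMUSG00000065423.1; chromosome 2, 38852735 to 38852810) and Mir181b-2 (ENSMUSG00000065578.1; chromosome 2, 38853830 to 38853918) are on the plus strand and farther apart, with 1019 bases between them. They lie opposite an intron of Nr6a1, the gene of an orphan nuclear receptor, and Mir181b-2 also lies opposite an exon of the unconfirmed gene model Gm44144. Mir181c (ENSMUSG00000065483.2; chromosome 8, 84178873 to 84178961) and Mir181d (ENSMUSG00000076338.1; chromosome 8, 84178716 to 84178787) are on the minus strand with 85 bases between them. They lie in an intron of Nanos3, a gene known for its part in germ cell development, on its own strand. Nearly no reads came from the strands opposite the members: Mir181a-2 had 1 antisense count in replicate 1, and every other antisense count of the 6 genes was 0.

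**Figure D1:**
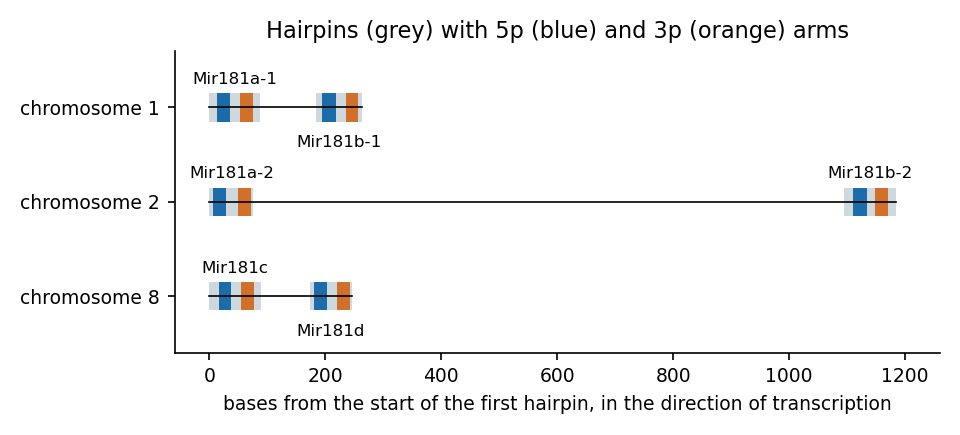
The 3 loci drawn to scale, with distance in bases from the start of the first hairpin along the x axis, hairpins in grey, 5p arms in blue and 3p arms in orange. The pairs of chromosomes 1 and 8 are compact, with 97 and 85 bases between hairpins, and the pair of chromosome 2 is spread over a gap of 1019 bases.

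Which reads could be counted for a gene depends on these sequences. The deposited tables keep multi-mapped reads in an entry of their own, and the genes and the entries add up to the same total in all 3 count columns. The gene counts were therefore read as holding the other mapped reads, although the sources used here do not state how multi-mapped reads were treated. The exact sequence of miR-181a-5p is in the hairpins of Mir181a-1 and Mir181a-2, and that of miR-181b-5p is in the hairpins of Mir181b-1 and Mir181b-2. The following stretches run from the first base of the 5p strand to the first base that is found in no other annotated hairpin, which is in capitals:
Mir181a-1: aacauucaacgcugucggugaguuuggA
Mir181a-2: aacauucaacgcugucggugaguuuggG
Mir181b-1: aacauucauugcugucgguggguuG
Mir181b-2: aacauucauugcugucgguggguuU

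A read that starts with miR-181a-5p has to be 28 bases long before it can be told apart between its genes by exact match, and the mature strand has 23 bases. For miR-181b-5p the corresponding length is 25 bases, against a mature strand of 24. By contrast miR-181c-5p is distinct from every other annotated hairpin after 11 bases and miR-181d-5p after 12. All 3p strands become distinct within their own length, after 8 bases for Mir181d, 9 for Mir181a-2, 10 for both Mir181b genes and 16 for Mir181a-1 and Mir181c. Over whole hairpins, every window of 22 bases of Mir181c (68 windows) and Mir181d (51 windows) is found in no other hairpin. The share was 89.4% for Mir181a-1, 87.3% for Mir181a-2, 91.5% for Mir181b-1 and 92.6% for Mir181b-2, and the shared windows of each lie in its namesake copy alone. Uniqueness was assessed among annotated hairpins and not over the genome.

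The libraries held 3378438 multi-mapped reads in replicate 1 and 3295854 in replicate 2, which belong to all repeated sequences and are not divided by gene. On that reading, levels of the Mir181a and Mir181b genes are uncertain and can stand too low. No mature strand of Mir181c or Mir181d is shared exactly with another annotated hairpin. A count is given per hairpin without regard to its arms, so it cannot be said whether it came from the 5p or the 3p strand.

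**Figure D2:**
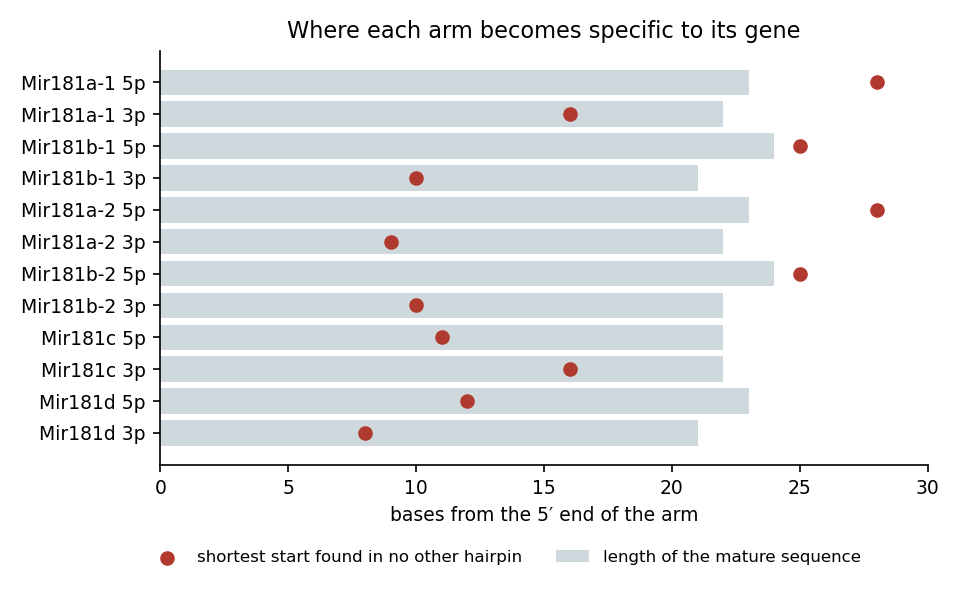
Bars give the length of each mature strand in bases, and red points the shortest stretch from its first base that occurs in no other annotated hairpin. For the 5p strands of the Mir181a and Mir181b genes the points lie beyond the end of the bar (28 against 23 bases, and 25 against 24), and for all other strands inside it.

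Levels are given as CPM, counts scaled to 1000000 counts assigned to the sense strand of microRNA genes. Replicate 1 had 7581366 such counts and replicate 2 had 9865298, so that 1 count is worth 0.132 and 0.101 CPM. The libraries are of bulk cells, in which fewer cells containing a microRNA and fewer copies per cell cannot be told apart. CPM was not divided by hairpin length (72 to 89 bases), because a read of a short-RNA library covers a mature strand and not the hairpin.

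Mir181c, the a/c-side gene of the chromosome 8 pair, had the most counts of the family. It had 9039 counts (1192 CPM) in replicate 1 and 16871 counts (1710.1 CPM) in replicate 2, a mean of 1451 ± 366 CPM (SD, n = 2), and stood at rank 49 of all microRNA genes. Its partner Mir181d followed with 8211 counts (1083 CPM) and 12203 counts (1237 CPM), a mean of 1160.0 ± 109 CPM (SD, n = 2) and rank 62. Mir181c was above Mir181d in each library, by 1.10-fold and 1.38-fold, but their ranges over the replicates overlapped.

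Mir181a-1 had 4267 counts (563 CPM) in replicate 1 and 3757 counts (381 CPM) in replicate 2, a mean of 472 ± 129 CPM (SD, n = 2) at rank 85. Mir181b-2 had 1934 counts (255 CPM) and 4248 counts (430.6 CPM), a mean of 343 ± 124 CPM (SD, n = 2) at rank 97. Their ranges overlapped and their order changed between the replicates: Mir181a-1 was 2.21 times Mir181b-2 in replicate 1 and 0.884 times in replicate 2. Both were below Mir181d in both libraries without overlap, and Mir181d was 1.92 and 3.25 times Mir181a-1.

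The remaining copies were rare. Mir181a-2 had 297 counts (39.2 CPM) in replicate 1 and 176 counts (17.8 CPM) in replicate 2, a mean of 28.5 ± 15.1 CPM (SD, n = 2) at rank 174. Mir181b-1 had 44 counts (5.80 CPM) and 77 counts (7.81 CPM), a mean of 6.80 ± 1.42 CPM (SD, n = 2) at rank 233. Mir181a-2 was above Mir181b-1 in both libraries without overlap, and Mir181b-2 was above Mir181a-2 by 6.51-fold and 24.1-fold. The median of the detected genes was 53.1 CPM, so 4 members stood above it and these 2 below.

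**Figure D3:**
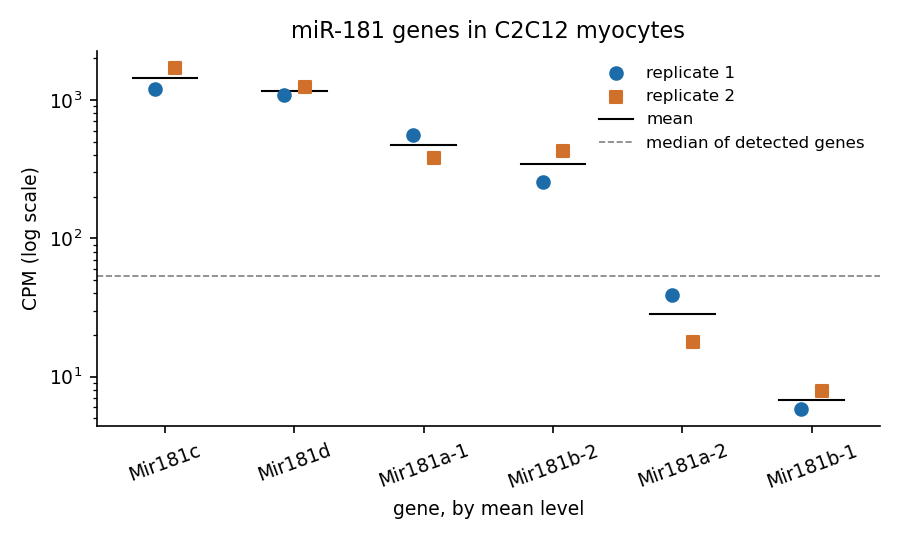
CPM of each member on a log axis, with replicate 1 as circles, replicate 2 as squares, the mean as a bar and the median of the 314 detected genes (53.1 CPM) as a dashed line. By counted reads, the genes fall into a high pair (Mir181c and Mir181d, 1083 to 1710.1 CPM), a middle pair (Mir181a-1 and Mir181b-2, 255 to 563 CPM) and a low pair (Mir181a-2 and Mir181b-1, 5.80 to 39.2 CPM).

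Together the 6 genes had 23792 counts in replicate 1 and 37332 in replicate 2. This was 0.314% and 0.378% of the assigned counts, a mean of 0.346% ± 0.0457 (SD, n = 2), or 3461 ± 457 CPM. For scale, the muscle microRNA gene Mir206 had 378817 ± 53707 CPM (SD, n = 2).

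Most of the family's counts came from chromosome 8. Mir181c and Mir181d gave 72.5% of them in replicate 1 (95% Clopper-Pearson interval 71.9% to 73.1%) and 77.9% in replicate 2 (77.5% to 78.3%), a mean of 75.2% ± 3.80 (SD, n = 2). The chromosome 1 pair gave 18.1% (17.6% to 18.6%) and 10.3% (9.96% to 10.6%), and the chromosome 2 pair 9.38% (9.01% to 9.75%) and 11.9% (11.5% to 12.2%). The order of the pairs of chromosomes 1 and 2 differed between the replicates, whereas the chromosome 8 pair was first in both. These intervals cover counting error only, since each was computed within 1 library. They treat reads as independent, and PCR copies are not independent molecules, so they can be too narrow. Any multi-mapped reads of miR-181a-5p and miR-181b-5p are in none of these shares, on the same reading, so the chromosome 8 share is one of the counted reads and not of all miR-181 molecules.

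Within the pairs, the counted reads of the partners were balanced on chromosome 8 and not elsewhere. Mir181c gave 52.4% of the counts of its pair in replicate 1 (95% Clopper-Pearson interval 51.7% to 53.1%) and 58.0% in replicate 2 (57.5% to 58.6%). On chromosome 1 the a/c-side gene led, with Mir181a-1 giving 99.0% (98.6% to 99.3%) and 98.0% (97.5% to 98.4%). On chromosome 2 the b/d-side gene led instead, with Mir181b-2 giving 86.7% (85.2% to 88.1%) and 96.0% (95.4% to 96.6%). The Mir181a-1 count was 97.0 and 48.8 times the Mir181b-1 count, and Mir181b-1 follows 97 bases behind it on the same strand. Within each pair the leading partner was the same in both libraries, and by how much it led differed beyond the counting intervals. Any multi-mapped reads of miR-181a-5p and miR-181b-5p are missing on chromosomes 1 and 2, on the same reading. The leads there are of the counted reads and not of all molecules of each gene.

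**Figure D4:**
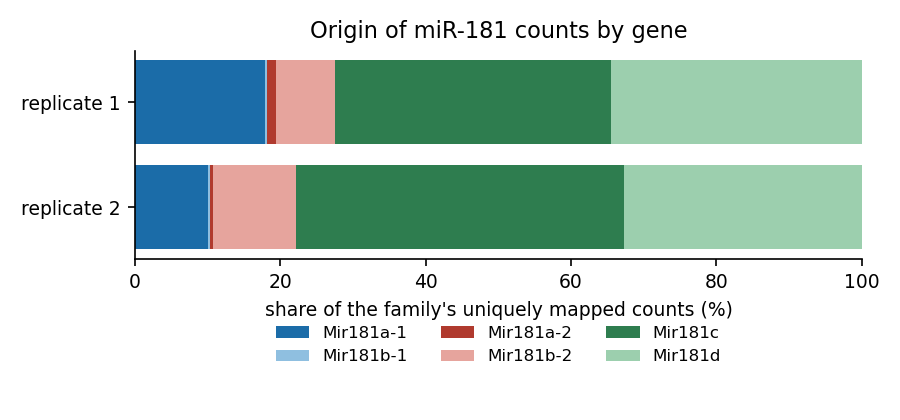
Stacked bars give the share of the family's counts from each gene in each replicate, in percent. Mir181c and Mir181d (greens) fill 72.5% of replicate 1 and 77.9% of replicate 2, Mir181a-1 (dark blue) fills 17.9% and 10.1%, and Mir181b-2 (pink) 8.13% and 11.4%.

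A strong lean to 1 gene was also seen when the members were arranged by mature 5p sequence instead of by position. Of the counts of the Mir181a genes, 93.5% in replicate 1 and 95.5% in replicate 2 came from Mir181a-1. Of the Mir181b genes, 97.8% and 98.2% came from Mir181b-2. Each name thus had 1 leading copy, and the leading copies lay on different chromosomes. For comparison, 6 other microRNAs with 2 gene copies were read in the same way, as a description. They are a selection and not all such microRNAs, and the uniqueness of their hairpins was not computed. The lean was also strong for miR-24 (91.4% and 95.2% from Mir24-2) and miR-26a (97.6% and 93.7% from Mir26a-2). The copies were more even for miR-128 (65.1% and 63.4% from Mir128-1), miR-29b (56.5% and 62.4% from Mir29b-2) and miR-30c (52.6% and 51.1% from Mir30c-1). For miR-138 the leading copy changed between the replicates. Multi-mapped reads are missing from all of these values.

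The replicates were compared gene by gene with an exact two-sided binomial test of the counts given the library totals, adjusted by Benjamini-Hochberg over the 314 detected genes. This test compares the 2 libraries and covers counting error only. Of all detected genes 66.6% had an adjusted p below 0.05, with 38.2% higher in replicate 1 and 28.3% higher in replicate 2 (120 and 89 genes). This split depended on the scaling: it was 109 and 99 genes with TMM factors, and 104 and 111 without Mir206 in the total. It also depended on the minimum, with 104 and 62 of 187 genes at a minimum of 100 counts. Among the members 5 of 6 passed, 2 higher in replicate 1 and 3 higher in replicate 2. A pass was thus common among detected genes, and the members' count says little about them. At high counts small ratios pass, as for Mir181d.

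The direction of the ratio differed among the members. Mir181a-1 was 1.48-fold higher in replicate 1 (log2 ratio 0.56, adjusted p = 7.78e-68 in the exact binomial test), and Mir181a-2 was 2.20-fold higher there (log2 ratio 1.13, adjusted p = 1.00e-16). The others leaned to replicate 2. Mir181b-2 was 1.69-fold higher in replicate 2 (log2 ratio of replicate 1 over 2 −0.76, adjusted p = 4.35e-85), Mir181c 1.43-fold (−0.52, adjusted p = 4.06e-173) and Mir181d 1.14-fold (−0.19, adjusted p = 2.37e-20), all by the exact binomial test. Mir181b-1, with 44 and 77 counts, had a log2 ratio of −0.43 and did not pass (adjusted p = 0.166 in the exact binomial test).

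Both genes of miR-181a thus had more CPM in replicate 1 and both genes of miR-181b more in replicate 2, although each pair of neighbours on chromosomes 1 and 2 holds 1 of each and Mir181b-1 did not pass the test. With the copies summed, the Mir181a genes had 602 and 399 CPM and the Mir181b genes 261 and 438 CPM. On the same reading, any multi-mapped reads of the shared strands miR-181a-5p and miR-181b-5p are in neither sum. The sums therefore describe the counted reads and not the levels of these strands. The ratios were ordinary in size for these libraries: the median absolute log2 ratio of the detected genes was 0.51, and 16.2% of them had a larger one than Mir181a-2, which had the largest among the members. By the CPM ratio, Mir181d was among the steadier genes, since 79.3% of the detected genes had a larger absolute ratio. Under the alternatives run, its log2 ratio was −0.37 to −0.28, and that share was not computed again. Over the whole family the ratio was 1.21 toward replicate 2.

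**Figure D5:**
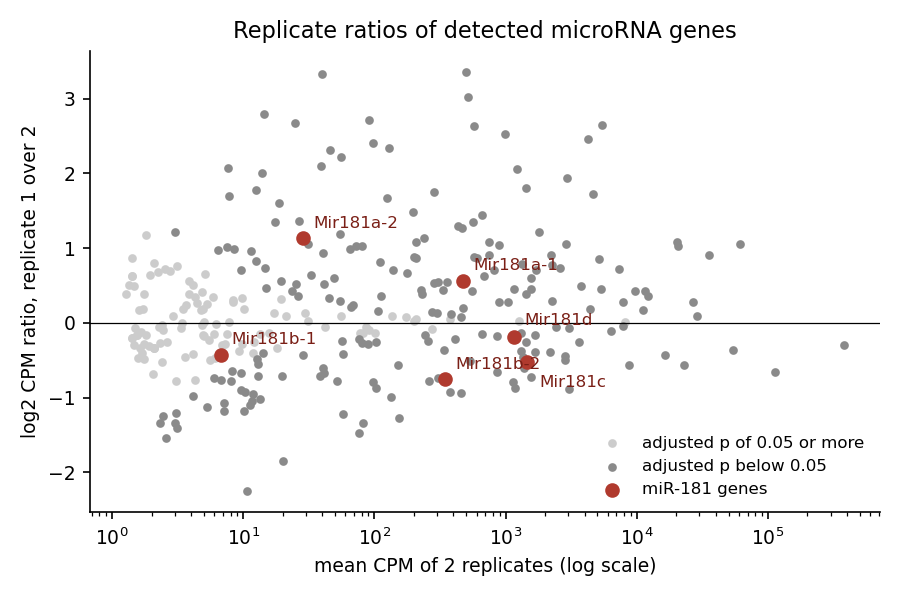
Each point is 1 of the 314 detected genes, with mean CPM on a log x axis and the log2 CPM ratio of replicate 1 over replicate 2 on the y axis. Dark grey points have an adjusted p below 0.05 in the exact binomial test, light grey points do not, and the 6 miR-181 genes (red) lie inside the cloud, from 1.13 for Mir181a-2 to −0.76 for Mir181b-2.

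The genes next to the members in mean CPM over the 2 libraries place them among better-known microRNAs of these cells. Mir181a-1 stood directly above Mir499, a muscle microRNA hosted by the myosin gene Myh7b, which had 564 and 378 CPM (mean 471 ± 131, SD, n = 2). Mir107 stood directly above it with 911 and 88.8 CPM. Mir181d lay between Mir501 (1181 ± 101 CPM) and Mir503 (1149 ± 255 CPM), a microRNA tied to cell cycle exit of myoblasts. Mir181c lay between Mir130b (1552 ± 542 CPM) and Mir15a (1439 ± 1126 CPM), and Mir181b-2 between Mir101b (360.0 ± 94.9 CPM) and Mir301 (337 ± 59.3 CPM). Mir181a-2 lay between Mir138-2 (29.3 ± 1.86 CPM) and Mir491 (28.4 ± 6.01 CPM), and Mir181b-1 between Mir3075 (6.90 ± 0.992 CPM) and Mir218-1 (6.76 ± 2.48 CPM). Likeness here means closeness in mean level alone, and each neighbour differed from its member by less than the SD of either (n = 2). Multi-mapped reads are missing from the neighbours' counts too.

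A list of other microRNAs tied to myoblast differentiation had a higher median level than the miR-181 genes, whose median was above that of all detected genes. Detection was reached by 18 of the 20 genes on that list, against 14.3% of all microRNA genes. A mean level of 1000 CPM was reached by 10, and the median of the detected ones was 1864 CPM. In the miR-181 family 2 of 6 reached 1000 CPM and the median was 407 CPM, and over all detected genes these values were 65 of 314 and 53.1 CPM. On the same reading, multi-mapped reads are missing from all of these values. After Mir206 the list was led by Mir378a with 112998 ± 36038 CPM, Mir322 with 20297 ± 10297 CPM and Mir133b with 12089 ± 2151 CPM (SD, n = 2 for each), each above Mir181c in both libraries. In the binomial test 9 genes of the list were higher in replicate 1 and 5 in replicate 2. The backgrounds were 38.2% and 28.3%, which depend on the scaling and the minimum as given above.

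Because miR-181 is also known from lymphocytes and neurons, the markers of other cell types were read beside it. Of all microRNA genes 14.3% were detected, which is the background for each list here. Skeletal muscle microRNAs had 7 of 9 genes detected and summed to 355315 and 428275 CPM in replicates 1 and 2. Nearly all of this was Mir206, with 340841 and 416794 CPM. Blood cell microRNAs had 5 of 9 detected and summed to 1023 and 658 CPM, led by Mir155 with 651 and 271 CPM, Mir342 with 262 and 200 CPM (1986 and 1970 counts) and Mir142 with 89.0 and 178 CPM (675 and 1752 counts). Lower on the same list, Mir451a had 90 and 36 counts, Mir146 had 42 and 41, and Mir144 had 26 and 7. The lymphoid Mir150 had 1 and 13 counts, the myeloid Mir223 had 2 counts and 1 count, and 1 gene, Mir142b, had none. Neural microRNAs had 4 of 10 detected and summed to 221 and 216 CPM. The detected ones were Mir128-1 (732 and 1048 counts), Mir128-2 (392 and 606), Mir138-1 (316 and 198) and Mir138-2 (232 and 276). The endothelial pair summed to 219 and 44.5 CPM, nearly all of it Mir126a with 217 and 42.9 CPM (1646 and 423 counts). The 5 neural genes without counts include the Mir124a genes, which are copies of each other. Reads that fit several copies are missing from such counts, as for the muscle genes Mir1a-1 (23 and 28 counts) and Mir1a-2 (32 and 18), so a count of 0 sets no upper limit there. The part of such cells in the miR-181 levels was not tested.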

How the data were processed

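MicroRNA-seq libraries of 2 biological replicates were analysed. Per the labels' protocols, short RNA was sequenced and adapters were trimmed. The deposited files hold read counts per microRNA gene on mm10 with GENCODE M21, per the deposited notes. Which aligner and counting program were used is not given in the sources used here. Each table has 3 count columns (either strand, sense, antisense) and 4 entries that name no gene (unmapped, multi-mapped, no feature, ambiguous), which stayed out of library sizes and tests. Multi-mapped reads were 22.0% of 15349205 reads in replicate 1 and 17.9% of 18450359 in replicate 2, unmapped reads 22.7% and 23.1%, and reads of no gene's sense strand 5.88% and 5.57%. All 2202 identifiers matched M21.

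Sense counts were used, and CPM was computed here from the library totals. Detection required a minimum of 10 counts per library. A chi-square of 780465 with 313 degrees of freedom over the detected genes showed that the libraries were not copies of each other. The exact binomial test was checked on simulated counts, with scipy 1.17.1. These were drawn with counting error only, so the check does not cover the wider spread between these libraries. Size factors came from edgeR 4.0.16 and DESeq2 1.42.0. With 1 group, edgeR's test had no contrast to fit. Mature sequences came from RefSeq (GRCm38.p6) and hairpins for the uniqueness search from the M21 transcripts. The genes named are the 6 members, the gene next above and below each in mean CPM, Mir206, up to 4 genes of each list, and the copies of the families compared. Marker genes named beyond these, at low counts, were added after their values were seen, and the blood cell list is named whole. The members and lists were chosen with earlier results of these data known. Alternatives were either-strand counts, TMM or DESeq2 scaling, all reads or totals without Mir206 as denominator, minimums of 1 and 100 counts, no minimum, copies summed, each replicate left out and, added after the values were seen, counts per hairpin base.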

Additional observations from a re-analysis of the deposited data

Results flagged for a closer look

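Some reads enter no gene level, and their numbers were looked at because they exceed 3 counts, the limit set for a count of 0. The entry of multi-mapped reads held 3378438 for replicate 1 and 3295854 for replicate 2, against 23792 and 37332 counts of the miR-181 genes. A further 903243 and 1027420 mapped reads lay on no microRNA gene's sense strand. Neither kind is divided by sequence in the files, so how many of them are miR-181 reads is unknown.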

How the results depend on the processing

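The level of the family depended on what it was divided by: 3967 CPM in the either-strand counts, 1787 with all reads as total and 5625 without Mir206 in the total, against 3461. With TMM factors it was 3474 and with DESeq2 size factors 3471, and leaving out a replicate gave 3138 to 3784. The chromosome 8 share was 75.2% in the either-strand counts and 72.5% to 77.9% with a replicate left out. All 6 members were detected under each alternative but the minimum of 100 counts, which left 5 without Mir181b-1. Mir181b-1 rose to 350 CPM and Mir181a-2 to 500.3 CPM with copies summed, by construction. Genes differing between the replicates numbered 166 (minimum of 100 counts) to 227 (minimum of 1 count), against 209. The number tested changed more: 166 of 187 passed at the minimum of 100, 227 of 555 at the minimum of 1 and 226 of 708 with no minimum, against 209 of 314. The share that passed therefore depended on the minimum. The genes higher in replicates 1 and 2 numbered 120 and 89, 109 and 99 with TMM factors, 110 and 99 with DESeq2 size factors, and 104 and 111 without Mir206 in the total. At the minimum of 100 counts these genes numbered 104 and 62, and the median log2 ratio of the genes tested was 0.28, against 0.09. Without Mir206 in the total, all log2 ratios fell by the same amount and the median of the detected genes went from 0.09 to −0.09. Relative to the median of the detected genes, which each scaling moves alike, the log2 ratio was 0.47 for Mir181a-1, 1.04 for Mir181a-2, −0.52 for Mir181b-1, −0.85 for Mir181b-2, −0.61 for Mir181c and −0.28 for Mir181d. All 6 members kept their direction under the 4 alternatives run, and Mir181b-1 alone crossed the threshold (adjusted p = 0.0417 in the exact binomial test without Mir206 in the total, 0.0977 at most, against 0.166). Per hairpin base, a scaling that is not meant for short reads, Mir181c over Mir181d in replicate 1 reversed to a log2 ratio of −0.17. Depth limits Mir181b-1 most, with 44 and 77 counts. No paired analysis was possible because the series has 1 group.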
